A study of Homo sapiens with 12 samples.

Results

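The genes described here are 10 members of bone morphogenetic protein (BMP) and transforming growth factor beta (TGF-beta) signalling, ID1, ID2, ID3, SMAD1, SMAD5, SMAD6, SMAD7, BMPR2, BAMBI and TGFBI, measured in CHRF288-11 cells, a human megakaryoblastic leukaemia line, after exposure to Wnt ligands. The members were listed by name. Of their 17 probes on the array, 12 probes of 9 genes were detected on at least 3 of 12 arrays and were tested, among 14051 tested probes of 48803 on the array. A probe counted as detected on an array where its deposited detection score was above 0.99, that is, a detection p under 0.01 against the negative controls.

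The series compared 4 groups of 3 arrays: cells given recombinant Wnt3a at 150 ng/mL, cells given recombinant Wnt5a at 1200 ng/mL, cells given both ligands at those doses, and untreated cells. All groups had spent 16 h without serum and were collected at 8 h. Each ligand was given at 1 dose and no vehicle group is labelled, so an effect of the ligand and one of its dose or solvent cannot be told apart. The series' design text calls the 3 arrays of a group biological replicates; nothing in the labels ties a replicate number to a day or culture, so p-values measure the spread between these arrays.

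BMP ligands bind pairs of type I and type II receptor kinases, BMPR2 being the main BMP type II receptor. The active receptors phosphorylate the receptor-regulated SMADs (SMAD1, SMAD5 and SMAD9), which enter the nucleus with SMAD4 and switch on target genes, among them the ID genes and the inhibitory SMADs SMAD6 and SMAD7. ID proteins are helix-loop-helix proteins without a DNA-binding region that hold E proteins away from DNA, and through this they bear on haematopoietic differentiation, including that of megakaryocytes.

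The arrays lay on 2 chips of 6 arrays. Chip 1 held Wnt3a replicates 2 and 3, Wnt5a replicates 1 and 3 and untreated replicates 2 and 3, and chip 2 held the remaining arrays, among them all 3 of the combination. Every difference from untreated cells within chip 2 therefore rests on 1 untreated array, and with a single ligand also on 1 treated array. The unnormalized signal averaged 364.4 to 378.3 per array on chip 1, against 312.1 to 347.5 on chip 2. Detection was reached by 12511 to 14088 probes per array. Of the tested probes 110 passed the test for a chip effect, 0 of them a member probe. The chip term still shifts estimates for both ligands, whose 3 arrays all lay on chip 2. Of 16 megakaryocyte markers 14 were detected on all 12 arrays, including ITGA2B, ITGB3, GP9 and GATA1, while PF4 and PPBP, the platelet factor 4 and pro-platelet basic protein genes, were not detected. The summed unnormalized signal of the megakaryocyte markers was 44350 to 45310 with Wnt3a, 42170 to 46700 with Wnt5a, 38700 to 44240 with both and 39930 to 47770 in untreated cells. These sums were not corrected for the lower signal of chip 2, which held all 3 arrays of the combination. On normalized values the median change of the 14 markers was -0.01 with Wnt3a, 0 with Wnt5a and -0.01 with both. Against untreated cells 2 of the 14 fell by the test: THBS1, the thrombospondin 1 gene, changed by -0.39 with Wnt3a and -0.28 with both (adjusted p = 0.00916 and 0.0424), and GP1BA, a subunit gene of the von Willebrand factor receptor, by -0.35 with Wnt5a and -0.43 with both (adjusted p = 0.0079 and 0.00507). These are 7.14% of the 14 with Wnt3a, 7.14% with Wnt5a and 14.3% with both. Over all tested probes 0.576%, 2.33% and 3.32% were lower. Of 6 tested erythroid markers 1, ALAS2, the erythroid enzyme of haem synthesis, rose by 0.39 with Wnt5a and 0.43 with both (adjusted p = 0.0301 and 0.0328). These are also the comparisons in which ID3, SMAD6, SMAD7 and TGFBI passed. The other 5 erythroid markers did not pass, and the median change of the 6 was -0.05 with Wnt5a and -0.06 with both. ALAS2 makes up 16.7% of the 6, where 2.93% of all tested probes were higher with Wnt5a and 4.44% with both. CSF1R, a monocyte marker, fell by 0.62 with both ligands (adjusted p = 0.00288), and CD2, a lymphoid marker, rose by 0.52 with Wnt3a (adjusted p = 0.0086). Of 9 monocyte and granulocyte markers MPO, ELANE, S100A8 and S100A9 were not detected, and of 8 lymphoid markers CD3E, CD3D, MS4A1 and CD8A were not. The summed unnormalized signal over all arrays ran from 1013 to 1325 for the monocyte and granulocyte list. For the lymphoid list it was 1783 to 1872 with Wnt3a, 1362 to 1651 with Wnt5a and 1421 to 1567 with both, against 1406 to 1767 in untreated cells, so that the Wnt3a arrays were the highest; the part of these markers in the results was not tested. The arrays measured bulk RNA, so that fewer cells of a type and less RNA per cell cannot be told apart.

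The members did not respond as a block. Wnt5a raised ID3 and SMAD6, with or without Wnt3a. Wnt3a alone lowered SMAD6 and ID1, but these calls ended in 11 and 14 of 24 other settings of the analysis. ID1 did not follow ID3: it was lower with Wnt3a and with both ligands, and its difference of -0.27 with Wnt5a did not pass. SMAD5, the receptor-regulated SMAD with a detected probe among the members, passed the test in no comparison.

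The 250 bases before the RefSeq gene start (build GRCh38.p14) are shown for the 3 members on which the results turn, ID1 and ID3 because they moved apart and SMAD6 because it moved with ID3. Capitals mark matches to 4 motifs searched on both strands: GGCGCC, the core of a GC-rich BMP-responsive element, CAGAC, the core of a SMAD-binding element, TGACGT, the core of a cAMP response element, and CTTTGA, the core of a TCF/LEF site. No 2 of the matches in these windows overlap. The windows are chr20:31605039-31605288 on the plus strand for ID1, chr1:23559502-23559751 on the minus strand for ID3 and chr15:66701986-66702235 on the plus strand for SMAD6, each written from 5′ to 3′ of the gene.
ID1: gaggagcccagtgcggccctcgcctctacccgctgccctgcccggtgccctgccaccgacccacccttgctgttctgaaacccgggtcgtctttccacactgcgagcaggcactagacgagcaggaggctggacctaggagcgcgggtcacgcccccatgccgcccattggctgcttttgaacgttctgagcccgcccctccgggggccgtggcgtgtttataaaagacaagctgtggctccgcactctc
ID3: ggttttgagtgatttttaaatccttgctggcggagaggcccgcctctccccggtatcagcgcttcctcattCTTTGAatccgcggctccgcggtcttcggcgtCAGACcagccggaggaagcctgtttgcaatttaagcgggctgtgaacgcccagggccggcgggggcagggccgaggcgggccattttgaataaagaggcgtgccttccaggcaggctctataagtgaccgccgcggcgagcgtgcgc
SMAD6: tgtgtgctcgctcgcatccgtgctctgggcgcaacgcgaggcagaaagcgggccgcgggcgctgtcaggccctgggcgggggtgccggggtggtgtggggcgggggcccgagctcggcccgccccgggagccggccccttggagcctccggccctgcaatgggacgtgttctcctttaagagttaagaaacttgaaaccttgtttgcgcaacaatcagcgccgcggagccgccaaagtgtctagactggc

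The ID3 window held 1 CTTTGA 179 bases and 1 CAGAC 147 bases before the gene start. The ID1 and SMAD6 windows held none of the 4 motifs. G and C made up 66% of the ID1 window, 62% of the ID3 window and 68% of the SMAD6 window. All 10 members matched the RefSeq table, with 16 windows in all, since SMAD1 and SMAD7 have several gene starts. GGCGCC was in 5 of these 16 windows (BAMBI, BMPR2, SMAD1 and TGFBI) and in 16.4% of 35116 windows of 250 bases in the table. CAGAC was in 6 of the 16 (BAMBI, BMPR2, ID3, SMAD1 and SMAD7) and in 38% of all windows. CTTTGA was in 3 (ID3, SMAD1 and SMAD7) and in 11.2% of all windows, while TGACGT was in 0 of the 16 and in 7.1% of all. These are matches of letters, and a window without a match says only that these letters are not in it.

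ID3 had the largest change of any member. Its normalized log2 intensity was 6.75, 6.73 and 6.68 with Wnt3a, 7.90, 7.82 and 7.80 with Wnt5a, and 7.44, 7.62 and 7.72 with both ligands, against 6.95, 6.67 and 6.75 in untreated cells. All 6 arrays with Wnt5a lay above all 6 arrays without it, and the Wnt3a and untreated arrays overlapped. Differences between groups were fitted with limma over all 14051 probes with a term for the chip, and adjusted p-values are Benjamini-Hochberg values over these probes, with 0.05 as the threshold. On the log2 scale ID3 rose by 1.05 ± 0.08 (SE, 95% interval 0.87 to 1.24) with Wnt5a relative to untreated cells, a fold of 2.07 (adjusted p = 2.73e-05, n = 3 each). Within chip 1 this difference was 1.14, and within chip 2, with 1 array of each of the 2 groups, it was 0.87. With both ligands ID3 rose by 0.75 ± 0.1, a fold of 1.68 (adjusted p = 0.000767), and by 0.65 within chip 2, which held all 3 arrays of the combination. With Wnt3a alone the change was -0.07 ± 0.08 (95% interval -0.25 to 0.11, adjusted p = 0.819). The 3 comparisons with untreated cells share the same 3 untreated arrays.

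The Wnt5a effect on ID3 was also present on top of Wnt3a. ID3 was higher with both ligands than with Wnt3a alone by 0.82 ± 0.1, a fold of 1.76 (adjusted p = 0.000805), and higher with Wnt5a than with Wnt3a by 1.12 ± 0.08, a fold of 2.18 (adjusted p = 1.05e-05). The 3 arrays with both ligands all lay below the 3 with Wnt5a alone, with a difference of -0.3 ± 0.1 that did not pass the test (95% interval -0.52 to -0.09, adjusted p = 0.365). The interaction (how far the Wnt3a effect in the presence of Wnt5a departed from its effect in the absence of Wnt5a) was -0.23 ± 0.13 (adjusted p = 0.675). The ID3 rise with Wnt5a passed in 24 of 24 other settings, but its size moved with the processing, to 0.51 in the authors' deposited log2 table. The rise with both ligands ended in 1 of 24 settings, the fit to those 2 groups alone (adjusted p = 0.0553), and was 0.36 in the authors' deposited table.

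ID1 moved the other way. Its log2 intensity was 7.27, 7.0 and 7.05 with Wnt3a, 7.27, 7.33 and 7.08 with Wnt5a, and 7.35, 7.14 and 7.01 with both, against 7.58, 7.49 and 7.43 in untreated cells. Every treated array lay below every untreated array, and the 3 treated groups overlapped with each other. ID1 fell by 0.45 with both ligands (SE 0.1, 95% interval -0.67 to -0.23, adjusted p = 0.019) and by 0.39 with Wnt3a (SE 0.09, 95% interval -0.58 to -0.2, adjusted p = 0.0475). Within chip 1 the Wnt3a difference was -0.43, and within chip 2 it was -0.31 for Wnt3a and -0.42 for both. With Wnt5a the difference from untreated cells was -0.27 ± 0.09, which did not pass (95% interval -0.46 to -0.08, adjusted p = 0.1). None of the differences between treated groups passed, for example 0.12 for Wnt5a minus Wnt3a (adjusted p = 0.545). The call for Wnt3a ended in 14 of 24 other settings, with adjusted p up to 0.173, including the removal of any 1 Wnt3a or untreated array, of Wnt5a replicate 2 or 3, or of replicate 2 of the combination. The call for both ligands ended in 5 of 24, among them the removal of untreated replicate 1 (adjusted p = 0.118) or of replicate 3 of the combination (adjusted p = 0.0579), and in the authors' deposited table the 2 changes were -0.19 with Wnt3a and -0.22 with both.

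ID2 read lower in both groups that held Wnt3a, which passed the test against untreated cells with both ligands, by 1 of its 2 tested probes. The first probe read 10.48, 10.45 and 10.33 with Wnt3a, 10.75, 10.73 and 10.66 with Wnt5a, and 10.52, 10.48 and 10.43 with both, against 10.81, 10.64 and 10.66 in untreated cells. The 6 arrays with Wnt3a lay below the 6 without it. The second probe averaged 10.50 ± 0.07 with Wnt3a, 10.78 ± 0.09 with Wnt5a, 10.59 ± 0.05 with both and 10.80 ± 0.04 in untreated cells (SD, n = 3 each), again with the 6 arrays with Wnt3a below the 6 without it. With both ligands the first probe fell by 0.28 (SE 0.07, adjusted p = 0.0355; -0.33 within chip 2), and the second differed by -0.18 ± 0.08, which did not pass (adjusted p = 0.186). With Wnt3a alone the differences were -0.28 ± 0.06 and -0.30 ± 0.07, just outside the threshold (adjusted p = 0.05001 and 0.0543). With Wnt5a the 2 probes differed from untreated cells by 0.01 and -0.01 (adjusted p = 0.96 and 0.963). Relative to Wnt3a, Wnt5a gave higher ID2 by 0.29 ± 0.06 and 0.28 ± 0.07 (adjusted p = 0.0165 and 0.0273). The ID2 call for both ligands ended in 16 of 24 settings, 9 of them the removal of 1 array: any untreated array, any array of the combination, Wnt3a replicate 1 or 3, or Wnt5a replicate 3. The 2 calls for Wnt5a against Wnt3a ended in 6 and 8 of 24, in each case on removal of Wnt3a replicate 1 or 3 or of Wnt5a replicate 1, and of Wnt5a replicate 3 for the first probe and replicate 2 for the second.

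**Figure D1:**
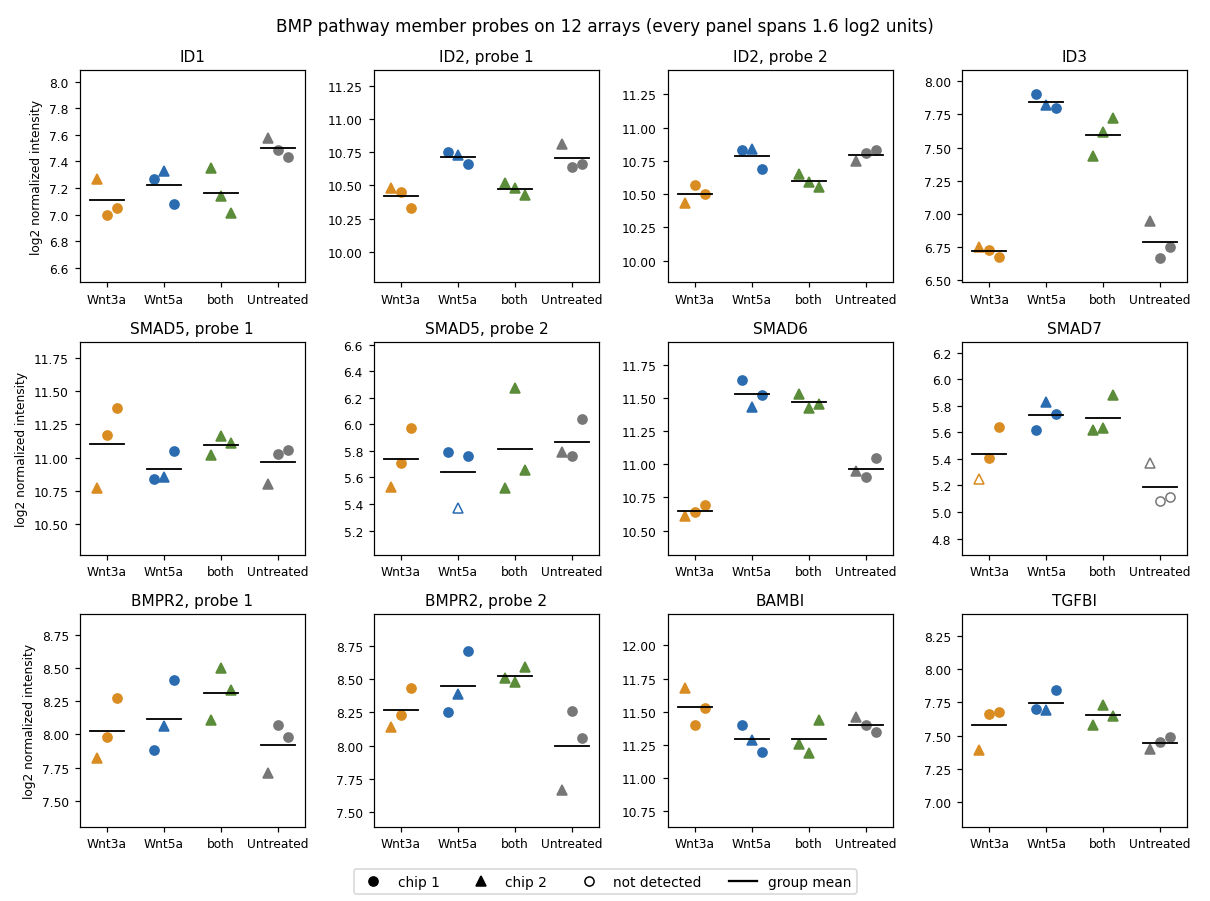
Normalized log2 intensity (vertical axis) of the 12 tested member probes on each array, by group: Wnt3a, Wnt5a, both ligands and untreated, with circles for chip 1, triangles for chip 2, open symbols for arrays where the probe was not detected and bars for group means (n = 3). The ID3 and SMAD6 panels show all 6 arrays with Wnt5a above all 6 without it, the ID1 panel shows the 3 untreated arrays above all others, and the SMAD7 panel shows open symbols for all 3 untreated arrays.

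The responses of ID1 and ID3 to Wnt5a were compared within arrays. Both genes were chosen with earlier results of these data known, so this test on the same arrays is not independent support. In each array the log2 value of ID1 was subtracted from that of ID3, and this difference was set relative to its mean in untreated cells, so that no level of a probe was compared with another probe's. It was 0.19, 0.44 and 0.34 with Wnt3a, 1.35, 1.2 and 1.43 with Wnt5a, and 0.79, 1.19 and 1.42 with both ligands, against 0.07, -0.1 and 0.03 in untreated cells. The 6 arrays with Wnt5a lay above the 6 without it. The Wnt5a term of a model with Wnt3a and chip was 1.13, with p = 0.021 in a two-sided exact permutation test over the 48 arrangements of the Wnt5a label within chip and Wnt3a status (p = 0.021 after adjustment over 2 pairs). This is the smallest p these arrangements can give. Without Wnt3a replicate 1 the term was 1.17, with p = 0.083 in the exact permutation test, the smallest that the remaining 12 arrangements can give. The term was 0.55 in the authors' deposited table.

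SMAD6 inhibits BMP receptor signalling by competing with SMAD1 and SMAD5, and it moved in opposite directions with the 2 ligands given alone. Its log2 intensity was 10.61, 10.64 and 10.69 with Wnt3a, 11.63, 11.43 and 11.52 with Wnt5a, and 11.53, 11.42 and 11.45 with both, against 10.95, 10.90 and 11.05 in untreated cells. The Wnt3a arrays were the lowest, the untreated arrays intermediate and the 6 arrays with Wnt5a the highest, with no overlap between these 3 sets. SMAD6 rose by 0.56 ± 0.07 with Wnt5a (95% interval 0.41 to 0.7, fold 1.47, adjusted p = 0.000434) and by 0.55 ± 0.08 with both (95% interval 0.38 to 0.71, fold 1.46, adjusted p = 0.00133). With Wnt3a alone it fell by 0.32 (SE 0.07, 95% interval -0.47 to -0.18, adjusted p = 0.0339). Within chip 1 the differences were -0.31 with Wnt3a and 0.6 with Wnt5a, and within chip 2 they were -0.34 with Wnt3a, 0.48 with Wnt5a and 0.51 with both. Adding Wnt5a to Wnt3a raised SMAD6 by 0.87 ± 0.08, a fold of 1.83 (adjusted p = 0.000121), and Wnt5a exceeded Wnt3a by 0.88 ± 0.07, a fold of 1.84 (adjusted p = 1.12e-05).

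Both ligands together gave SMAD6 a level close to that of Wnt5a alone, with a difference of -0.01 ± 0.08 (95% interval -0.18 to 0.16, adjusted p = 0.984). The interaction was 0.31 ± 0.1 (95% interval 0.09 to 0.53) with an unadjusted p of 0.01 and an adjusted p of 0.556, so the smaller effect of Wnt3a in the presence of Wnt5a did not pass the test. The SMAD6 rise with Wnt5a passed in 24 of 24 settings, between 0.51 and 0.6. The rise with both ended in 1 of 24, the fit to those 2 groups alone (adjusted p = 0.0614). The fall with Wnt3a ended in 11 of 24 settings, with adjusted p up to 0.197, among them the removal of any Wnt3a array, of untreated replicate 1 or 3, of Wnt5a replicate 3 or of replicate 3 of the combination.

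SMAD7, the other inhibitory SMAD, which restrains both TGF-beta and BMP receptors, was close to the detection limit. Of its 2 probes, 1 was detected on 0 arrays and was not tested. That probe averaged 4.61 with Wnt3a, 4.65 with Wnt5a and 4.71 with both, against 4.62 in untreated cells. The tested probe was detected on 2 of 3 arrays with Wnt3a, 3 of 3 with Wnt5a and 3 of 3 with both, and on 0 of 3 untreated arrays. The log2 values were 5.25, 5.41 and 5.64 with Wnt3a, 5.62, 5.83 and 5.74 with Wnt5a and 5.62, 5.63 and 5.88 with both, against 5.37, 5.08 and 5.11 in untreated cells, none of the last 3 well above background. Since untreated cells have only an upper bound, folds were taken against the lowest detected signal of those arrays, 5.46 on average. On this footing SMAD7 was at least 1.21-fold higher with Wnt5a (means 5.73 ± 0.11 and 5.19 ± 0.16). With both ligands it was at least 1.19-fold higher (means 5.71 ± 0.15 and 5.19 ± 0.16). These lower bounds were not tested. The limma test used the values as measured, those below detection included. The probe passed the detection filter only through the treated groups, so the p-values of this test are not independent of that filter. The limma log2 differences were 0.55 with Wnt5a (adjusted p = 0.0155) and 0.49 with both (adjusted p = 0.0444). With Wnt3a the mean of 5.43 ± 0.19 was under the limit of 5.46 and no fold is given (limma adjusted p = 0.42). The Wnt5a call ended in 5 of 24 settings: in the authors' deposited table, where the measured difference was 0.11, and without untreated replicate 2 or 3 or Wnt5a replicate 2 or 3. The call for both ended in 16 of 24, among them the authors' deposited table, where the measured difference was 0.1, the replicate block and the removal of any untreated array, any array of the combination, Wnt3a replicate 1 or 2, or Wnt5a replicate 2 or 3.

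Of the receptor-regulated SMADs among the members, SMAD1 could not be compared: neither of its 2 probes was detected on any array, the highest detection score being 0.98946. SMAD5 was detected with 2 probes. The first read 10.77, 11.17 and 11.37 with Wnt3a, 10.84, 10.85 and 11.05 with Wnt5a and 11.02, 11.16 and 11.11 with both, against 10.80, 11.03 and 11.06 in untreated cells. The 4 groups overlapped and no comparison passed. With both ligands the mean was 11.1 against 10.97 in untreated cells, and 11.24 against 10.92 after the chip adjustment. The difference with both ligands came nearest, at 0.32 ± 0.11 (95% interval 0.08 to 0.55, adjusted p = 0.0978), while those with Wnt3a and Wnt5a were 0.14 (adjusted p = 0.616) and -0.05 (95% interval -0.26 to 0.15, adjusted p = 0.848). The second SMAD5 probe, detected on 11 arrays, differed by -0.12, -0.22 and 0.14 with Wnt3a, Wnt5a and both (adjusted p = 0.836, 0.548 and 0.716).

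The inhibitory SMAD6 and the receptor-regulated SMAD5 were compared within arrays in the way described for the ID genes, with the same limit. The SMAD6 minus SMAD5 difference, relative to its untreated mean, was -0.16, -0.54 and -0.69 with Wnt3a, 0.79, 0.58 and 0.47 with Wnt5a and 0.51, 0.26 and 0.33 with both, against 0.15, -0.13 and -0.01 in untreated cells. All 6 arrays with Wnt5a lay above all 6 without it, and the Wnt3a arrays were the lowest. The Wnt5a term was 0.65, with p = 0.021 in the same two-sided exact permutation test (0.021 after adjustment over 2 pairs), again the smallest p of its 48 arrangements. Without Wnt3a replicate 1 it was 0.7, with an exact permutation p = 0.083, the smallest that is then possible.

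**Figure D2:**
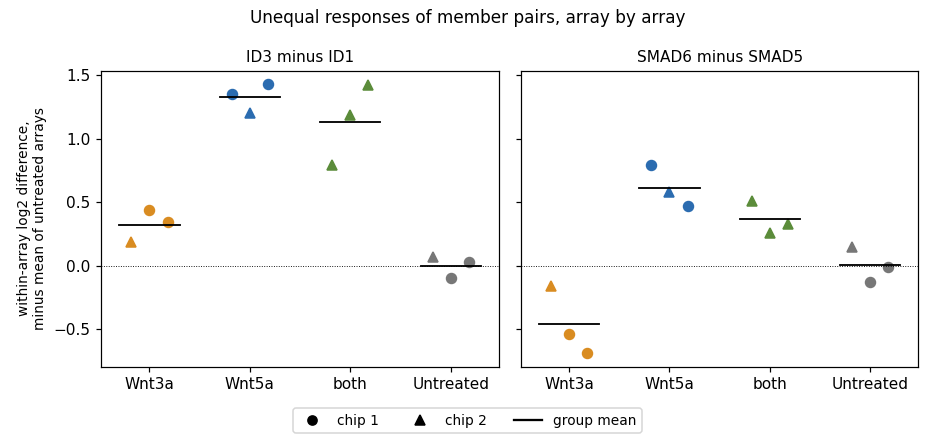
Within-array log2 difference of ID3 minus ID1 (left) and of SMAD6 minus SMAD5 (right), each relative to the mean of the 3 untreated arrays, for the Wnt3a, Wnt5a, combined and untreated groups, with circles for chip 1, triangles for chip 2 and bars for group means (n = 3). In both panels all 6 arrays with Wnt5a lie above all 6 without it, with group means for ID3 minus ID1 of 1.33 with Wnt5a and 1.14 with both.

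BMPR2, the type II receptor, had its highest mean with both ligands. Its second probe read 8.14, 8.23 and 8.43 with Wnt3a, 8.25, 8.39 and 8.71 with Wnt5a and 8.51, 8.48 and 8.59 with both, against 7.67, 8.26 and 8.06 in untreated cells. The arrays with both ligands all lay above the untreated arrays, whose own values spread over more than those of the combination. The mean was 8.53 with both ligands and 8 in untreated cells. After the chip adjustment, which the fit includes, these means were 8.66 and 7.96. BMPR2 rose by 0.7 ± 0.14 with both ligands (95% interval 0.4 to 1, fold 1.62, adjusted p = 0.0111), and by 0.85 within chip 2, where the lowest untreated array stood alone against the combination. Without that array, untreated replicate 1, the change was 0.51 and did not pass (adjusted p = 0.195), and in the authors' deposited table it was 0.45. With Wnt5a the change of the second probe was 0.45 ± 0.12 (adjusted p = 0.0522) and with Wnt3a 0.27 ± 0.12 (adjusted p = 0.4). The first BMPR2 probe gave differences of 0.11 with Wnt3a, 0.2 with Wnt5a and 0.55 ± 0.16 with both (adjusted p = 0.831, 0.52 and 0.0524), none past the threshold.

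BAMBI encodes a receptor decoy without a kinase domain that blocks BMP and TGF-beta receptors. It read 11.68, 11.40 and 11.53 with Wnt3a, 11.40, 11.29 and 11.20 with Wnt5a and 11.26, 11.19 and 11.44 with both, against 11.46, 11.40 and 11.35 in untreated cells. The groups overlapped, and the differences from untreated cells were 0.13 with Wnt3a (95% interval -0.05 to 0.32), -0.11 with Wnt5a (95% interval -0.29 to 0.08) and -0.17 with both (95% interval -0.39 to 0.04), with adjusted p = 0.601, 0.597 and 0.327. TGFBI, a matrix protein gene named for its induction by TGF-beta, was modestly higher with Wnt5a. It read 7.39, 7.66 and 7.68 with Wnt3a, 7.70, 7.69 and 7.84 with Wnt5a and 7.58, 7.73 and 7.65 with both, against 7.40, 7.45 and 7.49 in untreated cells. All 6 arrays with Wnt5a lay above the untreated arrays. TGFBI rose by 0.3 ± 0.07 with Wnt5a (adjusted p = 0.033) and by 0.3 ± 0.08 with both (adjusted p = 0.0463), and the change with Wnt3a was 0.13 (adjusted p = 0.534). Within chip 1 the Wnt5a difference was 0.3, and within chip 2 it was 0.29 with Wnt5a and 0.25 with both. These 2 calls ended in 12 and 16 of 24 settings. The settings that ended both calls included the removal of any 1 untreated array, of Wnt5a replicate 3 or of replicate 3 of the combination; removing Wnt5a replicate 2 ended the first call, and removing any Wnt3a array or replicate 2 of the combination ended the second. In the authors' deposited table both changes were 0.16.

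**Figure D3:**
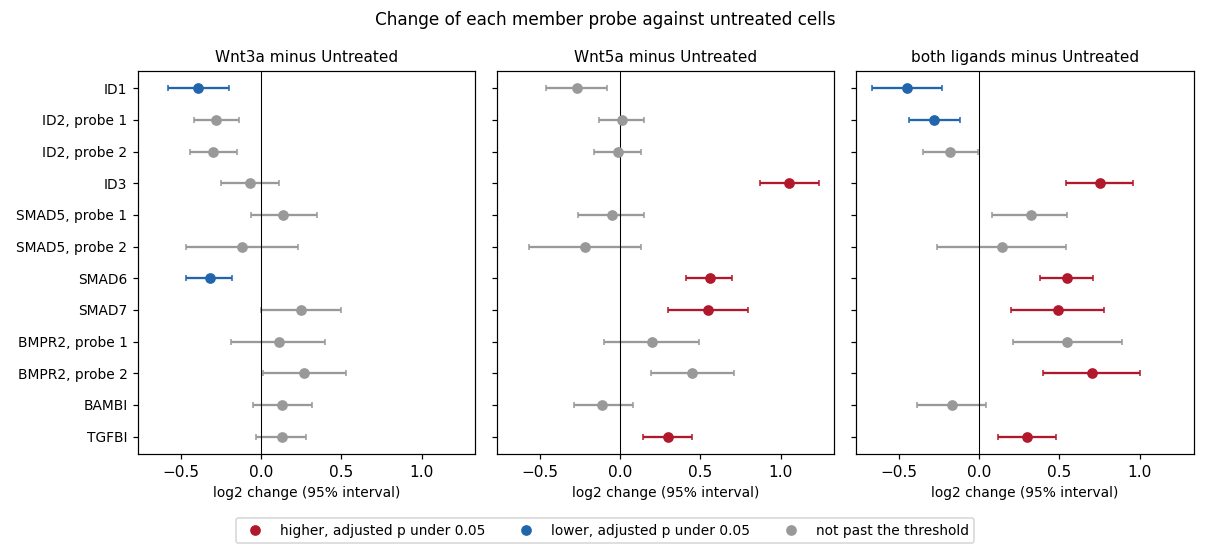
Change of each tested member probe against untreated cells on the log2 scale (horizontal axis, points with 95% intervals from the limma fit) for Wnt3a, Wnt5a and both ligands, with red for higher and blue for lower at an adjusted p under 0.05 and grey for the rest. ID3 stands at 1.05 with Wnt5a and at 0.75 with both, ID1 stands to the left of 0 in all 3 panels, and the SMAD7 points rest on untreated values below detection.

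By count, Wnt3a lowered 2 of the 12 member probes (ID1 and SMAD6) and raised 0. Over all tested probes 1.53% passed in this comparison, 0.954% higher and 0.576% lower. Wnt5a raised 4 (ID3, SMAD6, SMAD7 and TGFBI) and lowered 0, where 5.25% of all tested probes passed, 2.93% higher and 2.33% lower. Both ligands raised 5 (ID3, SMAD6, SMAD7, TGFBI and the second BMPR2 probe) and lowered 2 (ID1 and the first ID2 probe), where 7.76% of all passed, 4.44% higher and 3.32% lower. SMAD7, detected on 0 untreated arrays, entered the tested probes only through the treated groups. Its calls in these counts are therefore not independent of the detection filter. The median change of the 12 probes was 0.02 with Wnt3a, 0.11 with Wnt5a and 0.31 with both, and the medians over all tested probes were 0, 0 and -0.01. As further background, the arrays of the 2 groups did not overlap for 13.5% of all tested probes with Wnt3a, 19.8% with Wnt5a and 23.1% with both. The count for Wnt3a was 0 under median scaling, and that for both ligands was 2 without untreated replicate 1.

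Between treated groups, both ligands raised 2 member probes relative to Wnt3a (ID3 and SMAD6), where 4.63% of all tested probes passed, 2.78% higher and 1.85% lower, and 20% had groups that did not overlap. Wnt5a raised 4 relative to Wnt3a (both ID2 probes, ID3 and SMAD6), where 5.9% passed, 3.32% higher and 2.58% lower, and 20.2% did not overlap. Relative to Wnt5a alone, the combination changed 0 of 12 by limma (5 at an unadjusted p under 0.05), where 0.121% of all probes passed, 0.121% higher and 0% lower, and 11.8% did not overlap. The interaction was called for 0 of 12 (1 at an unadjusted p under 0.05, SMAD6) and for 0% of all tested probes, in either direction. A moderated F test over the 4 groups called 7 of the 12 (ID1, both ID2 probes, ID3, SMAD6, SMAD7 and the second BMPR2 probe), against 8.81% of all probes, with the smallest values for ID3 (adjusted p = 1.25e-05) and SMAD6 (adjusted p = 1.88e-05). The SMAD7 call again rests on untreated values below detection, and on a probe that passed the filter only through the treated groups.

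Over the 12 arrays, after removal of the chip effect, ID3 varied with SMAD6 (r = 0.93), TGFBI (r = 0.8) and SMAD7 (r = 0.79), and SMAD7 with TGFBI (r = 0.91). ID1 varied with both ID2 probes (r = 0.75 and 0.71) and not with ID3 (r = -0.35). It ran against TGFBI (r = -0.73), the 2 BMPR2 probes (r = -0.68 and -0.72), SMAD7 (r = -0.69) and the first SMAD5 probe (r = -0.65). The first ID2 probe ran against the first SMAD5 probe (r = -0.82), and SMAD6 against BAMBI (r = -0.76). The 2 ID2 probes gave r = 0.87, the 2 BMPR2 probes r = 0.87 and the 2 SMAD5 probes r = 0.52. These correlations describe 12 arrays in 4 groups and follow the group means, so they are given without a test. Among the other tested probes named by the platform annotation, those most like ID3 over the 12 arrays were KLHL13 (r = 0.985), NT5DC2 (r = 0.984), COX19 (r = 0.978), BMF (r = 0.974) and CCL3L3 (r = 0.971), the last a chemokine gene with near-identical copies that a probe may not tell apart. Their changes with Wnt5a ran from 0.44 for COX19 to 1.02 for CCL3L3. Those most like SMAD6 were PFKFB3 (r = 0.986), SLC30A5 (r = 0.981), FAM43A (r = 0.98), VASH1 (r = 0.98) and CCL2 (r = 0.974), with changes with Wnt5a from 0.13 for PFKFB3 to 1.34 for VASH1. Those most like ID1 were NRROS (r = 0.931), STK10 (r = 0.92), IRAK1 (r = 0.915), BCL3 (r = 0.912) and VPS53 (r = 0.907), whose changes with both ligands ran from -0.44 for BCL3 to -0.23 for IRAK1.

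Of 116 other genes of the BMP and TGF-beta pathways, all on the array, 56 had a tested probe. Against untreated cells 2 rose and 1 fell with Wnt3a, 1 rose and 3 fell with Wnt5a, and 1 rose and 4 fell with both, with median changes of 0, -0.02 and -0.01, taking the brightest tested probe of each gene. These are 5.36% of the 56 genes with Wnt3a, 7.14% with Wnt5a and 8.93% with both, against 1.53%, 5.25% and 7.76% of all tested probes. Of the 18 tested intracellular regulators 0 passed against untreated cells by limma (1 with Wnt3a, 0 with Wnt5a and 1 with both at an unadjusted p under 0.05). The ligand genes were mostly undetected, with 4 of 27 tested, and so were the extracellular inhibitors, with 4 of 16. Of these 4 ligand genes, GDF11, a TGF-beta family ligand, rose by 0.53 ± 0.09 with Wnt3a (adjusted p = 0.0126): it read 9.19, 9.13 and 8.95 with Wnt3a, against 8.63, 8.38 and 8.68 in untreated cells. It was 8.58 ± 0.14 with both ligands, lower than with Wnt3a alone by a log2 difference of -0.58 ± 0.1 (adjusted p = 0.0101). GDF15, a stress-responsive family member, fell by 0.32 with Wnt5a (SE 0.08, adjusted p = 0.0309) and by 0.41 with both (SE 0.09, adjusted p = 0.0162). With Wnt3a it differed by -0.33 ± 0.08, just outside the threshold (adjusted p = 0.0575), and Wnt5a minus Wnt3a was 0.01 (adjusted p = 0.965).

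Of 7 tested receptor genes, ENG, the co-receptor endoglin, fell with Wnt3a: it read 7.08, 7.10 and 7.03 with Wnt3a, against 7.50, 7.34 and 7.48 in untreated cells, a log2 change of -0.37 ± 0.07 (adjusted p = 0.019). Its change with Wnt5a was 0.02 ± 0.07 (adjusted p = 0.937). The type I receptors BMPR1A and ACVR1 did not pass against untreated cells. All 4 other SMAD genes were tested, and of these SMAD3, which serves TGF-beta receptors, was lower with both ligands, at 7.36, 7.52 and 7.25, against 7.71, 7.69 and 7.70 in untreated cells (log2 change -0.37 ± 0.08, adjusted p = 0.0222). SMAD4, the shared partner, changed by 0.07 with Wnt3a, -0.04 with Wnt5a and 0.04 with both, none past the test, and SMAD9, the remaining BMP SMAD, by -0.11, 0.05 and 0.29, none past the test. TWSG1, an extracellular BMP-binding protein, was lower by one of its 2 probes with Wnt5a (-0.28 ± 0.07, adjusted p = 0.03) and not by the other (-0.1, adjusted p = 0.72).

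Of 13 tested target genes, HEY1, a Notch and BMP target, rose with Wnt3a: it read 7.22, 6.90 and 6.95, against 6.46, 6.39 and 6.48 in untreated cells (0.58 ± 0.09, adjusted p = 0.00613). PRDM1, a transcriptional repressor gene, rose by 0.55 ± 0.1 with both ligands (adjusted p = 0.00628) and by 0.33 ± 0.09 with Wnt5a (adjusted p = 0.0477), its Wnt5a and untreated arrays overlapping. LTBP1, which encodes a latent TGF-beta binding protein, was called lower with both (-0.31 ± 0.08, adjusted p = 0.03), although its arrays overlapped with untreated arrays before the chip adjustment. Among 6 partner proteins of the ID network, the E protein genes TCF3, TCF4 and TCF12 did not pass in any of the 3 comparisons with untreated cells. LMO2, an adaptor in complexes of E proteins with TAL1 and GATA factors, fell with Wnt5a: it read 10.41, 10.45 and 10.41, against 10.84, 11.02 and 10.86 in untreated cells (-0.48 ± 0.08, adjusted p = 0.00263). TAL1 was called lower with both ligands (-0.28 ± 0.08, adjusted p = 0.0476), with overlapping arrays.

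Among these 10 genes LMO2 kept its call in 24 of 24 other settings. The Wnt3a calls of HEY1 and GDF11 ended in 2 and 4 of 24, without untreated replicate 1 or Wnt3a replicate 1 for both genes and also without untreated replicate 2 or Wnt3a replicate 2 for GDF11. The calls with both ligands ended without untreated replicate 1 for all 5 genes: in 2 settings in all for PRDM1, 3 for GDF15 (also without replicate 3 of the combination), 7 for SMAD3 (also without replicate 1 or 3 of the combination), 16 for LTBP1 (6 of them the removal of 1 array) and 21 for TAL1 (10 of them the removal of 1 array). The Wnt5a calls also ended without untreated replicate 1: in 8 settings for GDF15 (also without untreated replicate 2 or Wnt5a replicate 2 or 3), 11 for TWSG1 (also without untreated replicate 2 or 3 or Wnt5a replicate 1 or 3) and 16 for PRDM1 (9 of them the removal of 1 array). That of ENG with Wnt3a ended in 8 settings, including the removal of untreated replicate 1 or 3 or of any Wnt3a array. In the authors' deposited log2 table the changes with Wnt3a were 0.23 for HEY1, 0.39 for GDF11 and -0.18 for ENG. With Wnt5a they were -0.15 for GDF15, -0.24 for TWSG1, 0.14 for PRDM1 and -0.45 for LMO2. With both ligands they were 0.24 for PRDM1, -0.18 for GDF15, -0.19 for SMAD3, -0.08 for LTBP1 and -0.12 for TAL1. Against the changes given above, those of GDF11, TWSG1 and LMO2 moved by less than 1.5 times, and those of the other 7 genes were smaller by more than that.

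**Figure D4:**
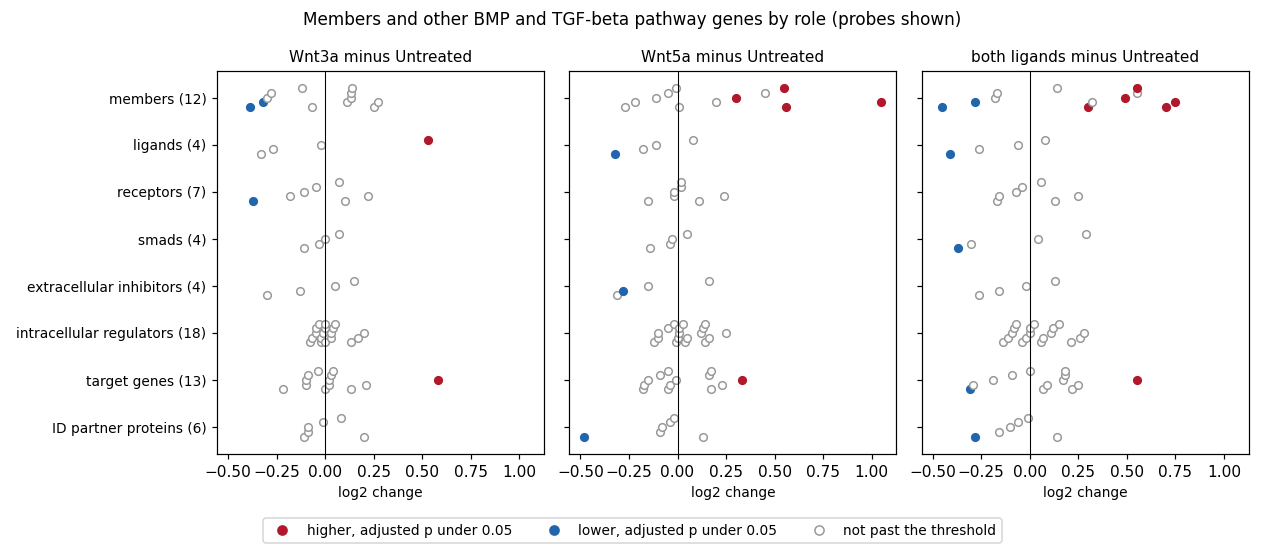
Log2 change against untreated cells (horizontal axis) with Wnt3a, Wnt5a and both ligands for the 12 tested member probes and for the other tested pathway genes, 1 probe per gene, grouped by role with the number of probes in brackets; red and blue points are higher and lower at an adjusted p under 0.05, open points did not pass. With Wnt5a the member row holds 4 red points and the 7 rows of other genes hold 1 red and 3 blue points.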

How the data were processed

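The members and the lists of other genes were chosen with earlier results of these data known. Total RNA was amplified and hybridized to Illumina BeadChips, per the labels. The authors deposited, per probe and array, an unnormalized signal (intensity) and a detection score, a fraction with 1 for the brightest probes, which was subtracted from 1 to give a detection p. The authors also deposited a normalized log2 table, used as an alternative. The submitters' processing notes name lumi, with no role; the genome build is not given in the sources used here.

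Normexp background correction took the negative controls from the detection p-values and used an offset of 16; quantile normalization and a log2 transform followed. Probes past a detection p of 0.01 on 3 or more arrays, 14051 in all, entered the fit with limma 3.58.1 in R 4.3.3: lmFit with 4 group means and a chip term, then eBayes (7 residual and 5.05 prior degrees of freedom), two-sided, with Benjamini-Hochberg adjustment within each comparison. The fit was tested on simulated data. Symbols came from the platform annotation for 11775 tested probes, from the deposited file alone for 2274, and 2 tested probes with several genes were not named. The SMAD6 minus SMAD1 test planned beside the other pairs was not run, since no SMAD1 probe was detected; the 5 member probes not tested are both of SMAD1 and 1 each of ID1, SMAD5 and SMAD7. A gene detected on 0 arrays of a group got a fold against the higher of the lowest detected signal of each array and its own value. The number of arrays limits the precision. Among other pathway genes the text names those past the threshold against untreated cells, 10 in all, with a few that did not pass chosen after their values were seen. Alternatives were the chip term, a replicate block, the normalization, the background correction, the offset, the filter on dim probes, the empirical Bayes setting, the groups fitted and the removal of each array. The undetected erythroid markers and the summed signal of that list are not reported here.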

Additional observations from a re-analysis of the deposited data

How the results depend on the processing

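The counts of member probes called moved with the processing, and no called result of a member reversed (0 in all): in the 12 planned settings other than removal of an array, 910 results of single members stayed on their side of the threshold, 47 lost and 39 gained a call. For Wnt3a minus Untreated (2 of 12 called) the count was 1 without the chip term and with only the groups of the comparison, 0 under median scaling, with all probes and with detection p under 0.05, and 4 in the authors' deposited table, without background correction, with an offset of 50, with detection on all 3 arrays of a group and with trend and robust eBayes. For both ligands minus Untreated (7) it was 4 without the chip term, with the replicate block and with detection p under 0.05, 3 with all probes and 1 with only the groups of the comparison. For both ligands minus Wnt3a (2) it was 5 without background correction and with trend and robust eBayes, and 4 with an offset of 50. For Wnt5a minus Wnt3a (4) it was 2 under median scaling and with only the groups of the comparison. The F test (7) called 11 members without background correction and with trend and robust eBayes, and 3 with all probes and with detection p under 0.05. Leaving out 1 array gave 0 to 3 calls for Wnt3a minus Untreated, 2 to 5 for Wnt5a minus Untreated (main 4; 2 without untreated replicate 3 or Wnt5a replicate 2 or 3), 2 to 9 for both minus Untreated (2 without untreated replicate 1 and 3 without replicate 3 of the combination), 2 to 4 for both minus Wnt3a, 2 to 4 for Wnt5a minus Wnt3a, 0 for both minus Wnt5a and for the interaction, and 3 to 8 for the F test. The Wnt5a term of ID3 minus ID1 ran from 1.08 to 1.22 on leaving out 1 array and that of SMAD6 minus SMAD5 from 0.56 to 0.7. The cause of these shifts was not tested, beyond the number of probes or arrays that a setting leaves.

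Replicate numbers were not taken as pairs, since the labels do not state that they pair samples. Deviations from group means correlated at -0.16 to 0.5 for equal numbers (11 of 18 over 0.1). For unequal numbers they correlated at -0.41 to 0.31 (6 of 36 over 0.1), and 9 of 12 arrays correlated best with their own number. Arrays of equal number were thus more often alike, which the main fit does not model. With the replicate block ID1 passed with Wnt5a (adjusted p = 0.0495) and ID2 with Wnt3a (0.0381), while with both ligands the calls of SMAD7 (0.0815), ID2 and TGFBI ended. Over all probes the counts ranged, across settings other than removal of an array, from 119 to 359 (main 215) for Wnt3a, 456 to 1006 (738) for Wnt5a and 224 to 1440 (1091) for both against untreated cells, 184 to 1111 (650) for both against Wnt3a, 2 to 36 (17) for both against Wnt5a, 513 to 1079 (829) for Wnt5a against Wnt3a, 0 to 3 (0) for the interaction and 734 to 1778 (1238) for the F test. Removal of 1 array gave 76 to 229 for Wnt3a and 238 to 1317 for both against untreated cells, each lowest without untreated replicate 1, and 368 to 760 for Wnt5a, lowest without Wnt5a replicate 3. It gave 86 to 888 for both against Wnt3a (lowest without Wnt3a replicate 1), 11 to 18 for both against Wnt5a (lowest without Wnt5a replicate 2), 421 to 886 for Wnt5a against Wnt3a (lowest without Wnt5a replicate 3), 0 for the interaction and 652 to 1286 for the F test (lowest without untreated replicate 1). Counts also moved by over 1.5 times without any other untreated or Wnt3a array for Wnt3a (91 to 139), without untreated replicate 1 or 2 or Wnt5a replicate 2 for Wnt5a (394 to 465), without Wnt3a replicate 1 (717) or replicate 3 of the combination (655) for both, without Wnt3a replicate 2 (427) or replicate 3 of the combination (332) for both against Wnt3a, without any Wnt3a array or Wnt5a replicate 2 for Wnt5a against Wnt3a (437 to 537), and without Wnt3a replicate 1 (771) or Wnt5a replicate 3 (740) for the F test. The shares of all probes called, given beside the member counts, move with them. SMAD7 and the second SMAD5 probe lie near background, which limits their sizes, and the SMAD6 minus SMAD1 alternatives could not be run.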
